A study of Homo sapiens with 21 samples.

Results

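Circular RNAs of chromatin regulator genes were followed in FaDu cells, an established squamous carcinoma line of the hypopharynx, after knockdown of IGF2BP3. Members were taken by the name of the host gene alone: the KMT2, KDM, SETD, EZH, CHD, SMARC, ARID, BRD, BRWD, BAZ, KAT, HDAC, TET and DNMT families, together with NSD1, WHSC1, ASH1L, EHMT, SUZ12, JARID2, BPTF, ATRX, CREBBP, EP300, EP400, PBRM1 and MGA, and without SETD3. This gave 241 of the 8714 circles counted in the series, from 68 of 3809 host genes, and 578 of the 14885 entries for m6A sites. SUZ12P and SUZ12P1, which the rule took by their shared prefix, are names for a pseudogene of SUZ12. Their circles lie at the same place on chromosome 17 and share an acceptor, so the files give 1 locus as 2 of the 68 hosts, and the split of reads among it and SUZ12 is uncertain.

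Chromatin regulators write, read and remove methyl and acetyl marks on histones, move nucleosomes, or methylate and demethylate DNA, and many are long genes of many exons. A circular RNA, or circle, forms when a splice donor joins an acceptor that lies upstream of it, and the read across that back-splice junction is what was counted. The same exons are also spliced into the linear mRNA, so a junction count measures the circle and not the protein or its mRNA. IGF2BP3 is an RNA-binding protein that reads m6A, a methyl mark on adenosine of RNA, and is known for stabilising bound transcripts in tumour cells.

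The controls, named shCtr, are labelled wild type with a blank treatment. The samples named sh3-1 and sh3-2, taken here as 2 hairpins, are labelled as IGF2BP3 knockdown in both genotype and treatment. All groups are the same line. Each of the 3 groups had 3 circRNA-seq libraries, A to C, and sh3-2 and shCtr also had 12 MeRIP libraries, 6 pairs of antibody-enriched and input RNA. MeRIP enriches RNA fragments with an antibody against m6A. Nothing in the labels says that the libraries of a group came from different cultures. The p-values therefore rest on a spread between libraries that may be technical only.

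Libraries held 3775 to 5846 junction reads, with the 3 lowest totals in sh3-2. Of the target gene itself 5 circles were counted, with 6, 2 and 0 reads in controls, 5, 1 and 0 in sh3-1 and 3, 6 and 0 in sh3-2. These junction reads overlap between the groups and are not a measurement of the IGF2BP3 mRNA. Circles also gave almost no check of the line: 1 of 16 squamous and epithelial marker genes had circles, with 4 reads, and 0 of 8 fibroblast and 0 of 7 immune markers had any. Among pairs of libraries 2 stood apart, sh3-1 A with B and sh3-2 B with C, which alone shared 360 and 197 circles, against 10 to 87 in the other 34 pairs. Of chromatin regulator circles, 8 and 4 were held by such a pair alone, against 0 to 4 for the other pairs.

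Host genes of this kind made many circles each. They averaged 3.54 circles, against 2.28 over all hosts, and 18 of 68 (26.5%) made 5 or more, against 11.3% of all hosts. This was not particular to the naming rule: other chromatin genes, listed below, made 174 circles from 51 hosts, against 241 from 68 here. SETD2, which trimethylates H3K36, made 14, WHSC1 (also NSD2, an H3K36 methyltransferase) made 13, and the remodeller gene CHD9 made 12. Exonic circles were 194 of 241 (80.5%), against 69.9% of all circles, and 159 (66.0%) carried a circBase ID, a catalogue entry, against 56.0%. The exonic circles had a median predicted length of 728 bases, against 589 over all exonic circles. These are descriptions of the annotation, with no test.

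Most of these circles were rare. Reads appeared in 1 library only for 153 of them (63.5%), close to the 62.0% of all circles, and the median circle had 3 reads over the 9 libraries. Circles seen in all 9 libraries numbered 3 of 241, against 77 of 8714, and they were 2 circles of MGA and 1 of KMT2C. These 3 circles together held 15.6% of the 1292 reads. The 10 hosts with the most reads held 55.7%. Circles seen only in controls were 64 (26.6%), against 29.4% of all circles, those seen only in sh3-1 52 (21.6%, against 23.7%) and those only in sh3-2 55 (22.8%, against 19.4%). Only 3, 9 and 6 of these, in that order, were in at least 2 libraries. Of the 9, 8 were held by sh3-1 A with B alone, and of the 6, 4 by sh3-2 B with C alone. Those are the pairs that stood apart over all circles. The same share was not counted over all circles, so these 3 counts are not read as a difference between groups.

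Many circles of a host began at the same acceptor. Of the 194 exonic circles, 82 (42.3%) shared their acceptor with another exonic circle, against 33.3% of all exonic circles, and 51 (26.3%) shared their donor, against 22.7%. WHSC1 had the hub with the most circles: 6 of its 10 exonic circles started at position 1902353 of chromosome 4 (hg19, plus strand) and held 55 of its 76 reads. SETD2 had 4 circles from position 47108608 of chromosome 3 and BRWD1 4 from position 40590586 of chromosome 21, both on the minus strand. In MGA, whose product binds MAX and belongs to a variant Polycomb complex, the exonic circle chr15:41961026-41991357 joined the acceptor of the largest MGA circle to the donor of the next largest. Its predicted length of 2255 bases is the sum of theirs, 1131 and 1124. It had 10 reads, against 92 and 57 for the shorter circles.

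Junction reads of chromatin regulator circles made up a similar part of control and sh3-1 libraries. These are bulk libraries, in which fewer cells with a circle and fewer copies per cell cannot be told apart. Per 1000 junction reads, controls had 25.1, 23.4 and 31.3, sh3-1 had 29.3, 24.6 and 27.0, and sh3-2 had 32.0, 40.3 and 28.8. The means were 26.6 ± 4.15, 27.0 ± 2.32 and 33.7 ± 5.91 (SD, n = 3 each). Library C of the controls lay above library C of sh3-2, so all 3 groups overlapped, and no test was made of this sum over chosen genes. The highest library, B of sh3-2, belongs to a pair that stood apart, and without it the sh3-2 mean was 30.4. In reads rather than shares, sh3-2 was not above the controls, with 124, 152 and 120 against 138, 130 and 182. The sh3-2 libraries were less deep, at 3775 to 4168 junction reads against 5502 to 5818 in controls, which lowers their reads. Counting error alone gives a single library an exact (Clopper-Pearson) 95% interval of 19.6 to 27.7 per 1000 at the lowest, control B, and of 34.2 to 47.0 at the highest, sh3-2 B.

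**Figure D1:**
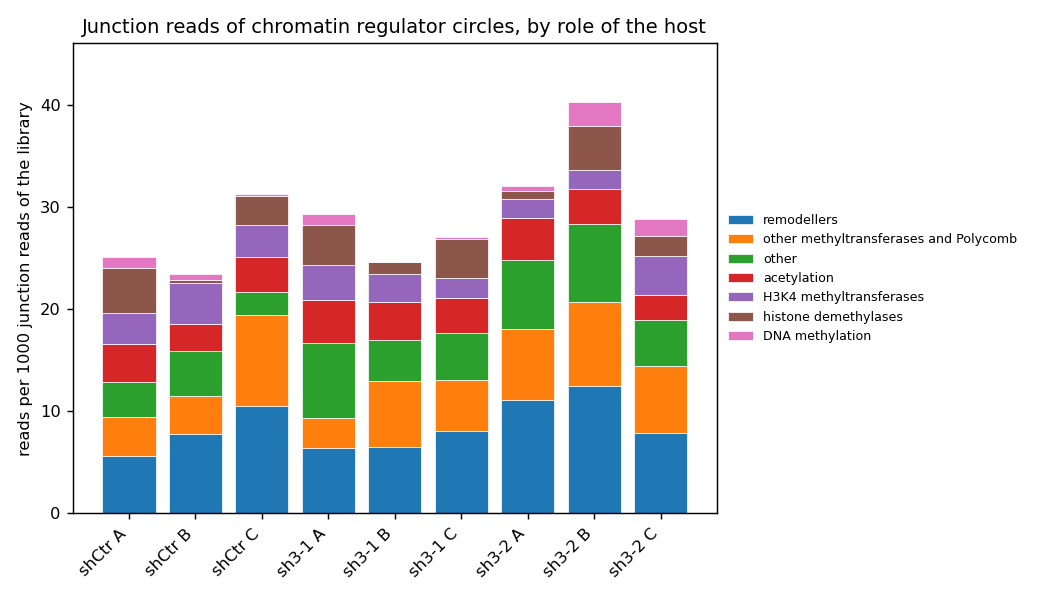
Reads of chromatin regulator circles per 1000 junction reads of each of the 9 libraries (vertical axis), stacked by the role of the host gene. The bars run from 23.4 in control library B to 40.3 in sh3-2 library B, and remodellers form the largest layer in most libraries.

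By role, remodellers were the largest group, with 88 circles of 23 hosts and 374 reads (28.9%). Histone methyltransferases other than those of H3K4, with the Polycomb genes, followed with 57 circles and 261 reads. The remaining hosts, mainly MGA, had 216 reads and the writers, readers and erasers of acetylation 157. The KMT2 genes and SETD1A, grouped by name as H3K4 methyltransferases whatever the activity of each, had 131, of which KMT2E gave 26. The histone demethylases had 119 and the genes of DNA methylation 34. The level of demethylase circles swung within groups, from 0.360 to 4.36 per 1000 among the controls. That of acetylation genes was steadier, 3.26 ± 0.49 in controls, 3.81 ± 0.35 in sh3-1 and 3.33 ± 0.87 in sh3-2 (SD, n = 3).

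Each hairpin was compared with the controls, sh3-2 with sh3-1, and both hairpins together with the controls, first with reads summed per host and then per circle. No chromatin regulator host or circle was called in any of the 8 comparisons by edgeR's quasi-likelihood test at a Benjamini-Hochberg adjusted p under 0.05, and neither was any other host or circle (0 of 1137 hosts and 0 of 726 circles, 0% called in each). DESeq2 also called 0 in all 8. The tests covered the 30 chromatin hosts and 28 chromatin circles with at least 10 reads, which held 86.9% and 44.1% of the members' reads, and left out 38 hosts and 213 circles. With no minimum, all 68 hosts and 241 circles were fitted and 0 were called.

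At an unadjusted edgeR p under 0.05, 0 of 30 hosts passed for sh3-1 against controls (6.77% of all hosts), 0 for sh3-2 (5.8%), 3 for sh3-2 against sh3-1 (6.77%) and 1 for both hairpins (6.77%). For circles the numbers were 3 of 28 (10.7% of all circles), 1 (6.34%), 2 (8.82%) and 2 (7.44%). DESeq2 gave 0, 1, 2 and 1 hosts in the same order, against 3.43%, 4.31%, 4.31% and 3.52% of all hosts, and 1, 0, 3 and 1 circles, against 3.86%, 3.31%, 4.27% and 3.86% of all circles. The median log2 fold change of the tested hosts was -0.11 for sh3-1, against 0.00 over all hosts, and 0.18 for sh3-2, against -0.16. These comparisons share the control libraries. In the authors' deposited table, 2 of 186 listed chromatin circles had a p under 0.05 for sh3-1 (1.03% of all) and 1 of 189 for sh3-2 (0.677% of all), and none had an FDR under 0.05.

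**Figure D2:**
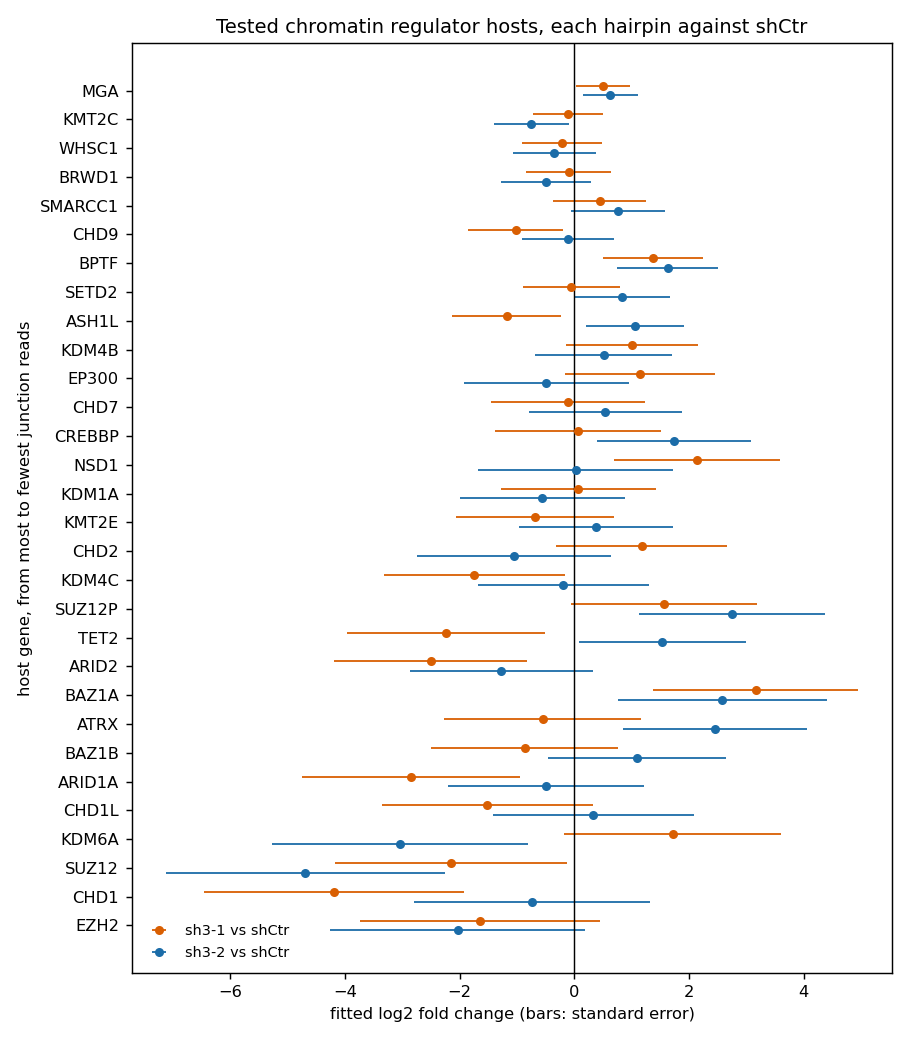
Fitted log2 fold change of circle reads (horizontal axis) for the 30 tested hosts, each hairpin against the 3 controls. Bars show a standard error worked back from the fold change and the F statistic of its test. Hosts run from MGA, with the most reads, to EZH2, and the errors widen as reads fall. Points beyond -3 belong to hosts with 0 reads in that hairpin, where the fitted value is no bound. None passed an adjusted p of 0.05.

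Libraries of a pair of groups did not overlap, in reads per 1000, for 3 of 30 hosts between sh3-1 and controls (10.9% of all hosts), 4 between sh3-2 and controls (11.1%) and 3 between sh3-2 and sh3-1 (9.76%). These shares lie near the background. ARID1A, ASH1L and CHD9 were the hosts below the controls in sh3-1. ASH1L, BPTF, SETD2 and SUZ12P were above them in sh3-2, and ASH1L, CHD9 and CREBBP were higher in sh3-2 than in sh3-1. Among circles, 2 of 28 were apart for sh3-1 (12.5% of all circles), 5 for sh3-2 (10.3%) and 4 between the hairpins (10.6%). All 5 for sh3-2 lay above the controls (4.82% of all circles did), 1 each of MGA, CREBBP, CHD9, SUZ12P and SMARCC1.

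MGA was the leading host. It had 17, 22 and 10 reads in controls, 33, 19 and 19 in sh3-1 and 22, 20 and 16 in sh3-2. Per 1000 this was 2.92 ± 1.13, 4.38 ± 1.898 and 4.94 ± 0.97 (SD, n = 3), and single libraries of all groups overlapped. Its 2 leading circles had different layouts. The circle chr15:41961026-41962156 had 9, 2 and 5 reads in controls, 28, 9 and 13 in sh3-1 and 9, 8 and 9 in sh3-2, with an edgeR log2 fold change of 1.504 for sh3-1 (SE 0.68, unadjusted p = 0.027, adjusted p = 0.454) and 1.27 for both hairpins (SE 0.62, unadjusted p = 0.040, adjusted p = 0.632). In the authors' deposited table the same circle had log2 fold changes of 1.47 (FDR 0.512) and 0.91 (FDR 0.558). Control A equalled the lowest sh3-1 count, and 28 of the 50 sh3-1 reads came from library A. Without that library the fold change for sh3-1 was 0.91, and without control A it was 2.31.

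The other MGA circle, chr15:41988273-41991357, had 4, 11 and 5 reads in controls, 3, 4 and 5 in sh3-1 and 11, 7 and 7 in sh3-2. Its reads per 1000 in sh3-2 lay above all of sh3-1 but overlapped the controls. The sum over the host therefore joins a circle that was highest in sh3-1 A and one that was lowest there.

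**Figure D3:**
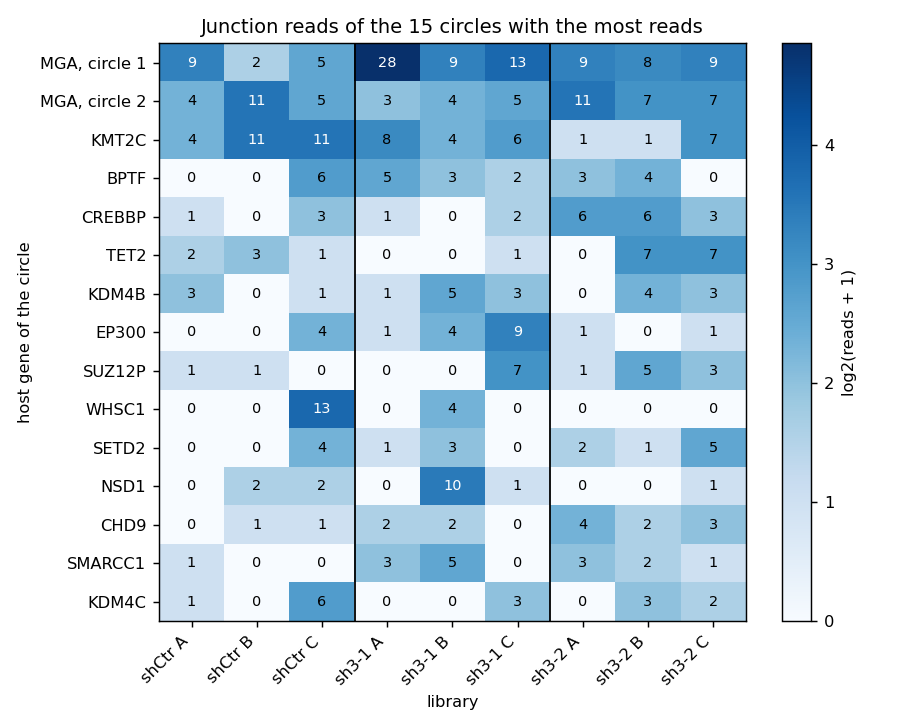
Junction reads (number in each cell, shaded by log2 of reads plus 1) of the 15 chromatin regulator circles with the most reads, in the 9 libraries. The 2 MGA circles and the KMT2C circle have reads in every library, and the WHSC1 circle has 13 of its 17 reads in control C.

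KMT2C, which methylates H3K4 at enhancers, had the next most reads among the hosts. Controls had 11, 14 and 15, sh3-1 12, 15 and 11, and sh3-2 4, 2 and 12. Per 1000, libraries A and B of sh3-2 were the lowest of the 9 and its library C was the highest, with means of 2.37 ± 0.32, 2.29 ± 0.33 and 1.48 ± 1.24 (SD, n = 3). Its main circle chr7:152007051-152012423 held 55.2% of the reads, with 4, 11 and 11 in controls, 8, 4 and 6 in sh3-1 and 1, 1 and 7 in sh3-2. Of the other H3K4 hosts, KMT2E had 26 reads over 8 libraries. KMT2A, KMT2D and SETD1A had 2, 5 and 2 reads, each in a single library.

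Among the other methyltransferases WHSC1 had 10, 4 and 17 reads in controls, 5, 8 and 14 in sh3-1 and 5, 5 and 8 in sh3-2, and the groups overlapped. The circles from its shared acceptor differed in where they appeared. The longest of those named, chr4:1902353-1941505, had 13 reads in control C, 4 in sh3-1 B and 0 elsewhere. Against a floor of 3 reads over the group, it was 3.03-fold lower in sh3-2 than in controls (edgeR unadjusted p = 0.022, adjusted p = 0.679). This rests on 1 control library, and the control reads are taken as counted, so the fold is no lower bound. The circle chr4:1902353-1920350 had 2, 1 and 2 reads in controls, 0 in every sh3-1 library and 4, 0 and 2 in sh3-2. Against the same floor, it was 2.81-fold higher in sh3-2 than in sh3-1 (edgeR unadjusted p = 0.039, adjusted p = 0.461). These counts are small enough that the groups differ by a few reads.

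ASH1L, an H3K36 methyltransferase, was lowest in sh3-1 and highest in sh3-2. Controls had 4, 4 and 8 reads, sh3-1 2, 4 and 1, and sh3-2 8, 9 and 8. Per 1000 this was 0.94 ± 0.38, 0.42 ± 0.26 and 2.12 ± 0.24 (SD, n = 3), with every sh3-1 library below every control and every sh3-2 library above, although control B (0.720) and sh3-1 B (0.684) nearly met. The log2 difference of sh3-2 from sh3-1 was 2.24 (SE 0.93, edgeR unadjusted p = 0.016, adjusted p = 0.628). The reads were spread over 9 circles, the largest of which, chr1:155408118-155429689, had 4 reads in each group. Some circles had reads in sh3-2 only, among them chr1:155385535-155429689 with 7 and chr1:155385535-155452240 with 6, the latter in 1 library. Others went the other way, such as chr1:155490891-155491409, with 5 reads in controls, 3 in sh3-1 and 1 in sh3-2.

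SETD2 had 7, 5 and 4 reads in controls, 3, 4 and 9 in sh3-1 and 6, 9 and 7 in sh3-2. Its level per 1000 was 0.95 ± 0.30, 0.95 ± 0.54 and 1.87 ± 0.45 (SD, n = 3), and every sh3-2 library lay above the controls, while sh3-2 A lay just below sh3-1 C. The largest SETD2 circle, chr3:47079156-47108608, had 0, 0 and 4 reads in controls, 1, 3 and 0 in sh3-1 and 2, 1 and 5 in sh3-2. NSD1, a further H3K36 methyltransferase, owed its leading circle chr5:176636637-176639196 mostly to sh3-1 B, with 10 of 16 reads. SUZ12, a core subunit of Polycomb complex PRC2, had 11 reads in control C, 2 in sh3-1 C and none in the other 7 libraries. Against both hairpins its edgeR log2 fold change was -3.42 (SE 1.70, unadjusted p = 0.044, adjusted p = 0.699), and it rests on that control library. It was -4.68 without sh3-1 C. SUZ12P had 1, 1 and 0 reads in controls, 0, 0 and 7 in sh3-1 and 2, 7 and 3 in sh3-2. With SUZ12P1 added, the pseudogene locus had 1, 1 and 3 reads in controls, 0, 2 and 7 in sh3-1 and 2, 7 and 3 in sh3-2. Per 1000, control C (0.516) and sh3-2 A (0.517) then nearly met, so the gap between sh3-2 and controls depends on the split by name.

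**Figure D4:**
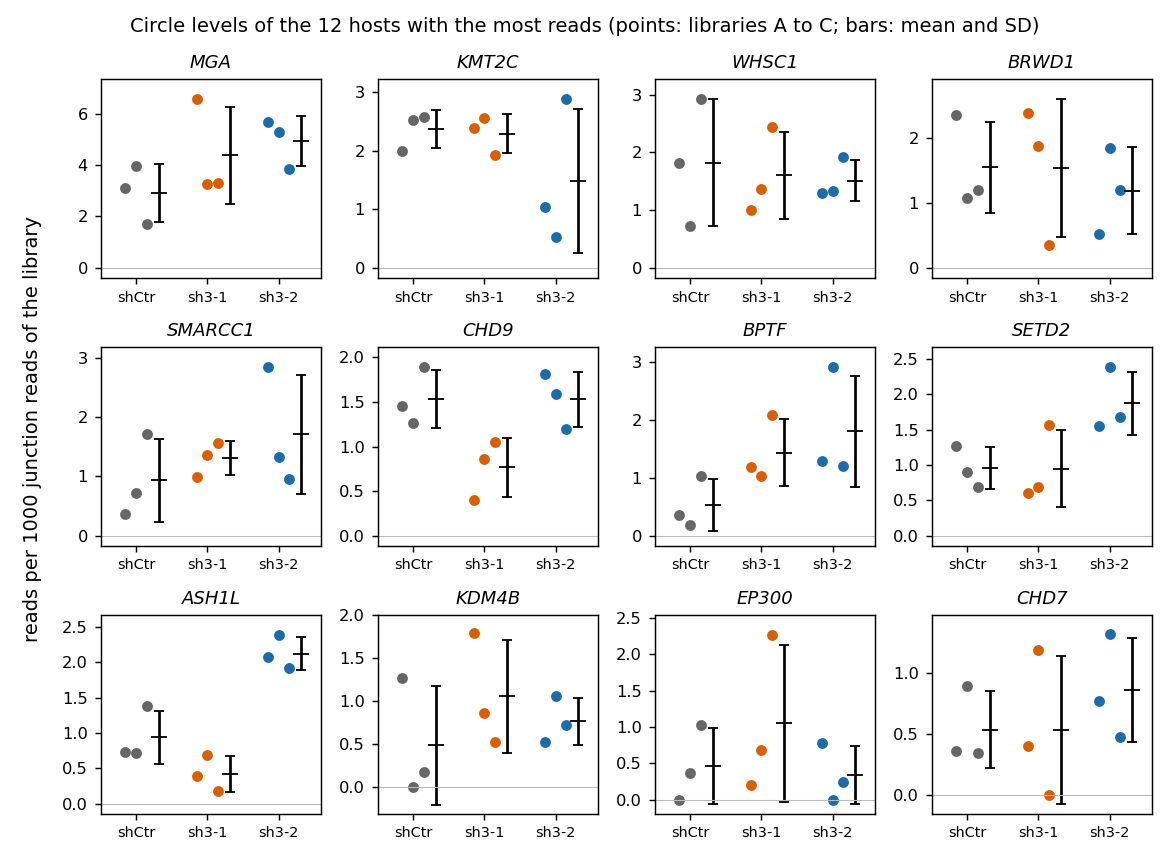
Circle level of the 12 chromatin regulator hosts with the most reads, as reads per 1000 junction reads of each library (vertical axis, a separate scale per gene). Points are libraries A to C of shCtr, sh3-1 and sh3-2, and bars show the mean and SD of 3. ASH1L is lowest in sh3-1 and highest in sh3-2, BPTF is higher in both hairpins with overlap in sh3-1, and most other hosts overlap throughout.

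Of the remodellers, BPTF, the largest subunit of the NURF complex, stood higher in both hairpins than in most controls, without passing the test. It had 2, 1 and 6 reads in controls, 6, 6 and 12 in sh3-1 and 5, 11 and 5 in sh3-2, or 0.52 ± 0.45, 1.44 ± 0.57 and 1.80 ± 0.96 per 1000 (SD, n = 3). The edgeR log2 fold change was 1.38 for sh3-1 (SE 0.87, adjusted p = 0.784), 1.63 for sh3-2 (SE 0.88, adjusted p = 0.688) and 1.504 for both (SE 0.79, adjusted p = 0.701). Leaving out single libraries gave 0.91 (without control B) to 2.29 (without control C) for sh3-1, 1.11 (without sh3-2 B) to 2.48 (without control C) for sh3-2, and 1.07 to 2.39 for both, without controls B and C in turn. Control C, at 1.03 per 1000, lay just above the lowest sh3-1 library and below all of sh3-2. The leading BPTF circle, chr17:65941525-65972074, did not show the same order, with 0, 0 and 6 reads in controls, 5, 3 and 2 in sh3-1 and 3, 4 and 0 in sh3-2.

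CHD9 had 8, 7 and 11 reads in controls, 2, 5 and 6 in sh3-1 and 7, 6 and 5 in sh3-2. Per 1000 it stood at 1.54 ± 0.32, 0.77 ± 0.33 and 1.53 ± 0.31 (SD, n = 3), with the sh3-1 libraries below all others. The leading CHD9 circle, chr16:53175091-53191453, is classed as sense overlapping and not exonic, spans 16363 bases, and had 0, 1 and 1 reads in controls, 2, 2 and 0 in sh3-1 and 4, 2 and 3 in sh3-2.

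SMARCC1, a core subunit of SWI/SNF, had 2, 4 and 10 reads in controls, 5, 8 and 9 in sh3-1 and 11, 5 and 4 in sh3-2, with full overlap. Its 2 best-covered circles had different libraries. The circle chr3:47770515-47814426 had 1, 0 and 0 reads in controls, 3, 5 and 0 in sh3-1 and 3, 2 and 1 in sh3-2. The circle chr3:47651556-47719801 had 1, 1 and 5 in controls, 0 in every sh3-1 library and 4, 0 and 0 in sh3-2. Against the floor of 3 reads, that circle was 2.30-fold lower in sh3-1 than in controls (edgeR unadjusted p = 0.044, adjusted p = 0.458). CHD7 had 2, 5 and 2, then 2, 7 and 0, then 3, 5 and 2 reads, in the order controls, sh3-1 and sh3-2. No order of its groups was visible.

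Remodellers with fewer reads gave the largest fitted changes and the largest errors. CHD1 had 0, 5 and 2 reads in controls, 0 in every sh3-1 library and 3, 0 and 0 in sh3-2. Against the floor of 3 reads, CHD1 was 2.30-fold lower in sh3-1 than in controls (edgeR adjusted p = 0.649). BAZ1A, a subunit of the ACF remodelling complex, had 0, 1 and 0 reads in controls, 0, 5 and 8 in sh3-1 and 0, 5 and 1 in sh3-2 (edgeR log2 fold change 3.2 for sh3-1, SE 1.78, adjusted p = 0.666). ARID1A, a SWI/SNF subunit often mutated in tumours, had 2, 1 and 7 reads in controls, 0, 0 and 1 in sh3-1 and 4, 0 and 1 in sh3-2 (-2.85 for sh3-1, SE 1.902, adjusted p = 0.846). Leaving out single libraries gave 2.36 (without sh3-1 C) to 4.92 (without control B, the only control with a read) for BAZ1A, and -4.60 (without sh3-1 C, the only sh3-1 library with a read) to -2.45 for ARID1A. None of these passed the test, and in BAZ1A and ARID1A at least 1 library of each hairpin had 0 reads.

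ATRX, a remodeller of heterochromatin, and TET2, which oxidises methylated cytosine, both had most of their reads in libraries B and C of sh3-2. ATRX had 0, 3 and 0 reads in controls, 0, 0 and 2 in sh3-1 and 0, 8 and 6 in sh3-2. TET2 made a single circle, chr4:106155054-106158508, with 2, 3 and 1 reads in controls, 0, 0 and 1 in sh3-1 and 0, 7 and 7 in sh3-2. Fitted as a circle, it was higher in sh3-2 than in sh3-1 by a log2 of 3.91 (SE 1.57, unadjusted p = 0.013, adjusted p = 0.461). It was 3.47 without library B of sh3-2 and 3.50 without C, the pair that stood apart. All sh3-2 reads of the circle lie in that pair. Leaving out 1 of its libraries at a time therefore cannot show the difference apart from the pair. Over all single libraries left out the log2 difference ranged from 3.38 to 5.51, the highest without sh3-1 C, which held the only sh3-1 read.

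Among acetylation genes BRWD1, a bromodomain protein that binds acetylated histones, had 13, 6 and 7 reads in controls, 12, 11 and 2 in sh3-1 and 2, 7 and 5 in sh3-2. None of its 11 circles held over 15.4% of the reads. That circle, chr21:40590078-40597123, had 5, 2 and 0 reads in controls, 0 in every sh3-1 library and 2, 1 and 0 in sh3-2. Against the floor of 3 reads, the circle was 2.30-fold lower in sh3-1 than in controls (edgeR unadjusted p = 0.041, adjusted p = 0.454). The related acetyltransferases EP300 and CREBBP had different layouts. EP300 had 0, 2 and 6 reads in controls, 1, 4 and 13 in sh3-1 and 3, 0 and 1 in sh3-2, and its leading circle chr22:41521868-41536261 had 9 of its 20 reads in sh3-1 C. The leading CREBBP circle, chr16:3900298-3901010, held 81.5% of the reads of its host, with 1, 0 and 3 in controls, 1, 0 and 2 in sh3-1 and 6, 6 and 3 in sh3-2, so that per 1000 each sh3-2 library lay above every other library.

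The demethylase KDM4B, which acts on H3K9, had 7, 0 and 1 reads in controls, 9, 5 and 3 in sh3-1 and 2, 4 and 3 in sh3-2. Its leading circle chr19:5047487-5047680, of 194 bases, had 3, 0 and 1, then 1, 5 and 3, then 0, 4 and 3. Libraries of all groups overlapped. The related KDM4C had its leading circle chr9:6880012-6893232 at 1, 0 and 6 reads in controls, 0, 0 and 3 in sh3-1 and 0, 3 and 2 in sh3-2. KDM6A, which demethylates H3K27, had 1, 0 and 2 reads in controls, 7, 0 and 3 in sh3-1 and 0 in every sh3-2 library. Against the floor of 3 reads, KDM6A was 2.37-fold lower in sh3-2 than in sh3-1 (edgeR unadjusted p = 0.044, adjusted p = 0.628). Of the 10 sh3-1 reads, 7 came from library A.

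A list of 81 other chromatin genes outside the naming rule, such as further Polycomb, corepressor and PHD finger genes, gave the setting. Circles were counted for 51 of them, with 837 reads, and edgeR called 0 of the 24 tested in each of the 4 host comparisons. The edgeR unadjusted p was under 0.05 for 3, 3, 0 and 4 of the 24. Of all hosts, 6.77%, 5.8%, 6.77% and 6.77% were, in the same order. Their level was 20.9 ± 3.28 per 1000 in controls, 17.3 ± 2.41 in sh3-1 and 16.7 ± 3.86 in sh3-2 (SD, n = 3). Their median log2 fold change was -0.70 for sh3-1, against 0.00 over all hosts, and -0.46 for sh3-2, against -0.16. The chromatin regulators of the naming rule stood at 26.6, 27.0 and 33.7 in the same libraries, and no test was made of the difference between the lists.

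The m6A sheets compare sh3-2 with the controls and give a fold, a direction and an FDR per site, all of them the authors' values. Chromatin regulator circles had 578 entries on 99 circles of 55 hosts, 311 higher and 267 lower in sh3-2. At the authors' FDR under 0.05, 31 entries were called (5.36%, against 9% of all entries), 20 higher (4.47% of all entries were) and 11 lower (4.53%). On exonic circles 23 of 312 were called (7.37%, against 9.5%). The called entries lay on 23 circles of 18 hosts, with a median fold of 1.56. Of them 7 had a fold of at least 2, and 9 were under 1.3. By role, 9 of 191 entries on remodeller circles were called, 7 of 256 on those of the other methyltransferases and Polycomb genes, 5 of 26 on those of the H3K4 methyltransferases, all of them KMT2C, 4 of 33 on those of demethylases, 4 of 16 on those of the remaining hosts, all of them ARID4B, 2 of 38 on those of acetylation genes and 0 of 18 on those of DNA methylation genes.

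Sites were not spread by how much circle was counted. The EHMT1 circle chr9:140637844-140712590 (sense overlapping, 74747 bases) had 79 entries and 0 junction reads in the 9 libraries. In all, 11 of the 99 circles had no junction reads, with 114 entries and 1 call. Of the 15 circles with the most reads, 7 had sites, 28 entries in all, and 1 had a called site. TET2 had 13 entries on its single circle, 5 higher and 8 lower, and none was called. MGA had 6 entries, none called.

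In several hosts all or nearly all sites pointed the same way. Most hosts named here and below were picked by their small FDR values, so their called counts are high by choice. Of all entries 9% were called. Hosts without a call could be as one-sided, such as NSD1 with 8 of 9 entries higher. KMT2C had 10 entries, all higher in sh3-2, and 5 were called. In the authors' deposited table the site at chr7:151921622-151921701, on a circle with 14 reads, was 1.91-fold higher (FDR 1.55e-04), and chr7:151864231-151864463 and chr7:151855948-151856157, both on the circle chr7:151847985-151880241, were 1.39-fold and 1.297-fold higher. That circle had 2 reads, and the main KMT2C circle had no site. ARID4B, a subunit of a SIN3 corepressor complex, had 6 of 7 entries higher and 4 called, the smallest FDR being 3.02e-04 at chr1:235418975-235419065, 1.78-fold higher in the authors' deposited table. BAZ1A had 7 of 7 higher and 2 called, among them chr14:35249392-35249516 at 1.39-fold. The ARID4B circle and the circle of this BAZ1A site had 2 reads each, those of BAZ1A in sh3-1 only. Entries of a circle share their RNA and libraries, so they are not independent.

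In SMARCC1 the sites pointed the opposite way. All 10 SMARCC1 entries were lower and 3 were called. In the authors' deposited table chr3:47651556-47651817 was 1.52-fold lower (FDR 5.16e-05) and chr3:47814307-47814426 was 1.88-fold lower (FDR 7.75e-05). Each lies at an end of a SMARCC1 circle described above. JARID2, which recruits PRC2, had 8 of 9 entries lower and 1 called, chr6:15501138-15501640 at 1.58-fold. KDM3A, an H3K9 demethylase, had its called site at chr2:86669141-86669356, 1.56-fold lower. The circles of these JARID2 and KDM3A sites had 2 reads each, those of JARID2 in sh3-2 only and those of KDM3A in controls only.

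**Figure D5:**
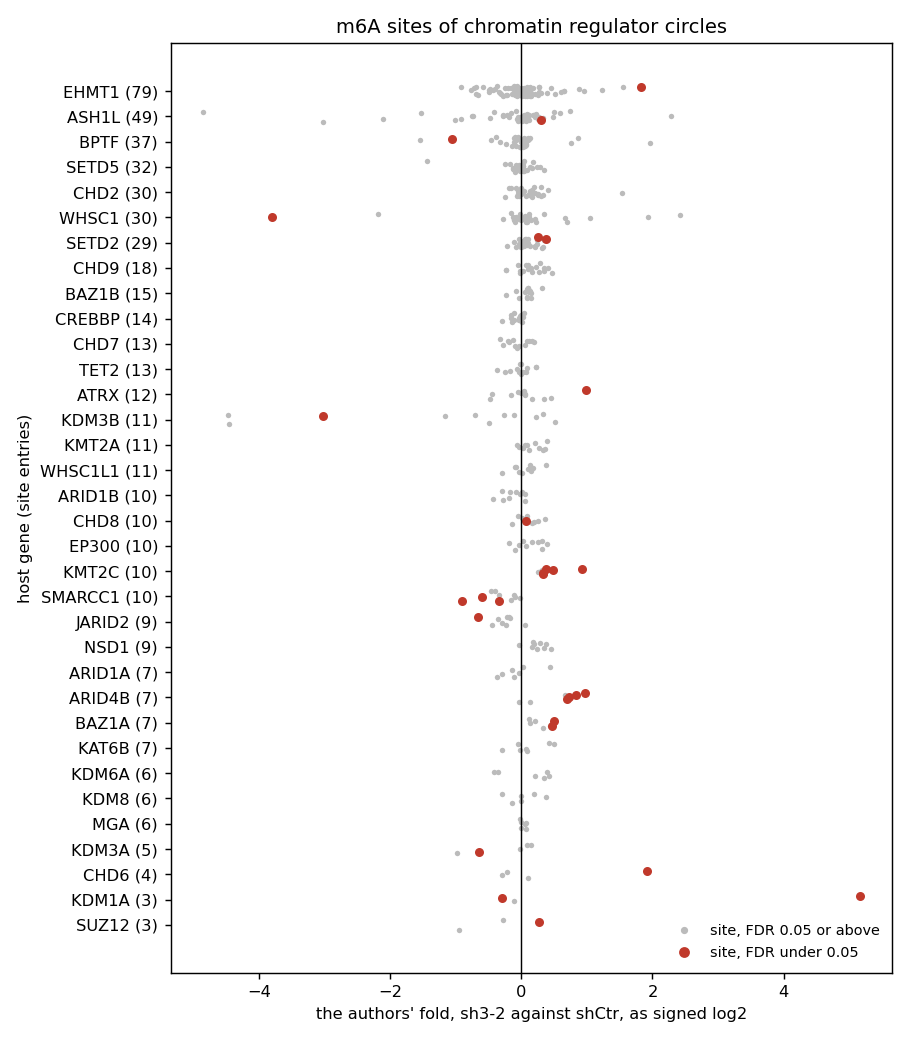
The authors' fold of each m6A site between sh3-2 and shCtr, as signed log2 (horizontal axis, above 0 is higher in sh3-2), for hosts with at least 6 entries or a called site, apart from 1 host not reported here. Red points have an FDR under 0.05. KMT2C and ARID4B have called sites on the higher side only and SMARCC1 on the lower side only. The points far from 0 include both called and uncalled sites.

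The smallest FDR values came with small folds. In the authors' deposited table SETD2 had a site at chr3:47139202-47139571, 1.301-fold higher (FDR 1.08e-07), CHD8 one at chr14:21861635-21861820, 1.05-fold higher (FDR 4.12e-07), and SUZ12 one at chr17:30321622-30322000, 1.20-fold higher (FDR 5.60e-07). The circles of these SETD2, CHD8 and SUZ12 sites had 2 reads each. The largest called folds were on intronic or sense overlapping circles, apart from that of CHD6, whose circle is exonic. KDM1A, the demethylase LSD1, had an intronic site at chr1:23368822-23369080 35.8-fold higher (FDR 0.017) and an exonic one at chr1:23356962-23357127 1.23-fold lower (FDR 2.80e-04). WHSC1 had one at chr4:1934782-1935160 14.0-fold lower (FDR 0.003) and KDM3B one at chr5:137742762-137743080 8.14-fold lower (FDR 5.30e-04). The remaining named folds were those of CHD6 at chr20:40126808-40126866 (3.79-fold higher), EHMT1 at chr9:140687282-140687560 (3.53-fold higher) and BPTF at chr17:65931342-65931640 (2.08-fold lower). Circles with these largest named folds had from 0 (EHMT1) to 5 (WHSC1) reads.

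Sites at an end of their circle, next to the back-splice junction, were 114 of 578 entries (19.7%), against 23.4% of all entries. Of the called entries 9 of 31 (29.0%) were at an end, against 29.2% of all called entries. The m6A values have no replicate spread in the sheets, so no SD is given for them.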

How the data were processed

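The submitters' processing notes name hg19 as the build and list STAR 2.5.1b, cutadapt 1.9.3 and edgeR 3.16.5, without saying what each did. Per the labels' protocols, total RNA was depleted of rRNA and made into strand-specific libraries. The sources used here give neither the program that called circles nor how sites were called. The authors deposited whole-number counts of junction reads per circle and library, and with them a log2 fold change, a p-value and an FDR for each hairpin against controls. For each m6A site the authors deposited a fold, which is a ratio never below 1, its direction in another column, and a p-value with FDR, but no value per library. The sheets do not state whether the fold is corrected for input or whether reads had to cross a junction. Site starts counted from 0 were raised by 1. Another 24 columns, log2 CPM per library, were not used.

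Circles absent from a hairpin's sheet were given 0 reads there, and control counts agreed between sheets. Reads were compared per circle and per host, all 9 libraries in 1 fit, with the quasi-likelihood test of edgeR 4.0.16 (robust, TMM factors, two-sided) in R 4.3.3 over all rows with at least 10 reads in total, adjusted by Benjamini-Hochberg; fold changes are relative to those rows. A call is an adjusted p under 0.05. The SE given with an edgeR fold change is its absolute log2 value divided by the square root of the test's F statistic. It was not estimated on its own, is approximate, and is unstable where the fold change is near 0. The alternatives numbered 18, among them DESeq2 1.42.0. Counts with known changes in sh3-2 were simulated, with the same dispersion for every row. On them the main edgeR fit of sh3-2 against controls left all but very large changes uncalled. The other comparisons and the alternatives were not tried on simulated counts. Python 3.11.15 with pandas 2.3.3, scipy 1.17.1 and matplotlib 3.10.9 made the other values.

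Levels are per 1000 junction reads of the library. With 0 reads, a share of up to 0.0513% (deepest library) or 0.0795% (shallowest) is allowed, taking 3 reads as the limit. Such limits and intervals cover counting error only, as the labels name no molecular identifiers. A fold against a group with 0 reads sets that group at 3 reads. It takes the reads of the other group as counted, so it is no lower bound. Library letters were not taken to pair samples: over hosts, the deviations of the 9 same-letter pairs correlated at -0.04 to 0.05. Pairs of different letters correlated at -0.05 to 0.05. With so few reads per host, this check cannot exclude that libraries of a letter share a batch. Within groups, libraries differed by a chi-square of 2.17 to 4.06 per degree of freedom, so none was counted as a repeat of another.

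Named circles are the 15 with the most reads and those tested at an unadjusted p under 0.05. Named hosts are the 12 with the most reads and the 4 with the smallest p in each comparison. Named sites are, in each direction, the 8 with the smallest FDR and the 3 with the largest fold among those called; the sites of 1 host are not reported here, though counts over all members include them. The members, the list of 81 other chromatin genes, the marker lists and these rules were chosen with earlier results of these data known. Some named items lie outside these rules and were chosen after their values were seen. They are the MGA circle with the acceptor and donor of 2 others, and the named ASH1L circles. Also outside are the KMT2C and EHMT1 circles named with their sites and the ASH1L fold changes against controls. The reads of the H3K4 hosts other than KMT2C, the reads of SUZ12P1 and the site count of NSD1 are too. No genome of the files' build was used, so no sequence is shown.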

Additional observations from a re-analysis of the deposited data

Results flagged for a closer look

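ASH1L circles lay on opposite sides of the controls in the 2 hairpins, in reads per 1000 junction reads: all 3 sh3-1 libraries were below every control and all 3 sh3-2 libraries above. Of all hosts, 10.9% and 11.1% did not overlap with the controls in these comparisons, in either direction. The share of hosts on opposite sides in the 2 hairpins was not counted. In reads, control C had 8, as many as sh3-2 A and C, but from a deeper library. Likewise sh3-1 B had 4, as many as controls A and B, so that gap comes from the library totals. Against the controls, the edgeR log2 fold change was -1.18 for sh3-1 (unadjusted p = 0.213, adjusted p = 0.921) and 1.06 for sh3-2 (unadjusted p = 0.218, adjusted p = 0.903). The log2 difference between the hairpins was 2.24 (edgeR unadjusted p = 0.016, adjusted p = 0.628 over 1137 hosts), so the difference itself did not pass the test. It ranged from 1.78 to 2.80 when single libraries were left out. The circles chr1:155385535-155429689 and chr1:155385535-155452240, with 7 and 6 reads, had them in sh3-2 only. Of the site entries on ASH1L circles, 28 of 49 were higher in sh3-2 and 1 was called at the authors' FDR under 0.05.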

How the results depend on the processing

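No chromatin regulator host or circle was called under any of the 18 alternatives of the count fits, leaving out single libraries included (0 in each). Among all circles, 1 that is not a chromatin regulator was called for sh3-2 against controls with at least 20 reads, with only the groups compared, and without sh3-1 library A or B. Of 540 recomputed fold changes of named hosts and circles, 532 kept their sign and 8 turned, all of them of MGA circles, and the lowest adjusted p was 0.330. For both hairpins, the circle chr15:41988273-41991357 was at -0.14 and became 0.020 with RLE factors, 0.061 with library totals, 0.017 with DESeq2 and 0.013 with filterByExpr. Leaving out single libraries gave -0.26 to 0.58, and it was above 0 without control B, sh3-1 A or sh3-2 B. For sh3-2 against sh3-1, the circle chr15:41961026-41962156 was at -0.46 and ranged from -0.80 to 0.24, the latter without sh3-1 A, where 28 of its reads lie. With the replicate letter as a block, ASH1L was 2.26 for sh3-2 against sh3-1 and 0 members were called.

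The chromatin share moved most with the set of circles. Without the 5 circles with the most reads it was 22.3 per 1000 in controls, 21.2 in sh3-1 and 26.7 in sh3-2. With circBase circles only it was 22.0, 22.3 and 28.1 in the same order, and with exonic circles only, per 1000 reads of exonic circles, 29.6, 30.0 and 38.8. Leaving out single libraries gave 24.2 to 28.2 in controls, 25.8 to 28.2 in sh3-1 and 30.4 to 36.2 in sh3-2. Called m6A sites fell from 31 to 7 (3 higher, 4 lower) when a fold of at least 2 was also asked. The cause was not tested. Depth limits the comparisons: 38 hosts and 213 circles had fewer than 10 reads.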
